A study of Rattus norvegicus with 24 samples.

Results

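The citrate cycle and the breakdown of branched-chain amino acids were examined in the left kidney of PKD/Mhm (Cy/+) rats, through 35 genes listed for these pathways and matched to the tables by rat Entrez identifier. Of the 35 genes, 33 were analysed among 17334 identifiers, with 15 of 15 in the citrate cycle group and 18 of 20 in the branched-chain group. Acad8 and Mmut were not analysed here. All 33 genes passed the filter on low counts, as did 12778 genes in all. The animals were 24 male rats aged 8 months, labelled as heterozygous for Cy, a missense change in Anks6 that gives cystic kidneys. The study's methods told cystic from non-cystic rats by abdominal palpation, and the genotype was not tested here. Untreated animals formed the control group (Ctrl). The CoCM group received conditioned medium from a co-culture of human skin-derived ABCB5+ stromal cells with stimulated THP-1-derived macrophages, given by a route on which the sources used here differ. The human cells themselves were injected into the peritoneum in the i.p. ABCB5+ group and into a vein in the i.v. ABCB5+ group. Treatments were given monthly for 6 months, and each group had 6 animals, each sampled 1 time.

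The citrate cycle is the mitochondrial route that oxidises acetyl-CoA and supplies reduced carriers to the respiratory chain. Leucine, isoleucine and valine lose their amino group to the BCAT aminotransferases, are committed to oxidation by the branched-chain ketoacid dehydrogenase complex, and then follow separate routes to acetyl-CoA, propionyl-CoA and succinyl-CoA, which enter the cycle. The proximal tubule of the kidney is rich in mitochondria and carries much of this oxidative capacity. The comparisons address whether the treatments moved the transcripts of these enzymes away from the untreated cystic kidney.

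Estimated counts per library totalled 9304630 to 14125457, so that 3 counts correspond to 0.363 CPM (counts scaled to library size and TMM factor, as all levels given here) in the smallest library. Libraries of 4 animals stood apart from the rest over all genes tested, members included. Animal 39 of CoCM, animal 38 of i.p. ABCB5+ and animals 36 and 37 of i.v. ABCB5+ lay between 80.8 and 97.4 on principal component 1, which held 56.3% of the variance, and the other 20 animals lay between -53.0 and 11.53. The group comparisons are therefore also given without these animals. Animals 36 to 39 also had the lowest TMM factors, at 0.810 to 0.901. Animals 38 and 39 had the smallest libraries, at 9304630 and 9759947 counts. Control animals were numbered 1 to 24 and treated animals 26 to 43, so the order of the animals and the treatment cannot be told apart.

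Levels of different genes were compared in TPM, a scale that takes transcript length and library total into account. Mdh1, the cytosolic malate dehydrogenase, had the highest median level over 24 kidneys at 654 TPM. The mitochondrial enzymes Idh2, the NADP-linked isocitrate dehydrogenase, and Mdh2 followed at 416 and 396 TPM. Among the branched-chain enzymes, Hsd17b10 of the isoleucine route and Aldh6a1 of the valine route led at 277 and 271 TPM. Bcat1, the cytosolic aminotransferase, had the lowest level with a median of 4.25 TPM, under Abat at 21.7 TPM and Hibch at 24.2 TPM. Abat is an aminotransferase that acts on GABA and on a product of valine breakdown, and Hibch removes CoA from a valine intermediate. Neighbouring medians mostly differed by less than each gene's spread between animals. The highest kidney exceeded the lowest by 1.53-fold for Idh3a and by more for each of the other 32 members. This ratio reached 13.1-fold for Abat and was larger still for Bcat1. Such a spread does not give the order of genes within a kidney, which is given below for subunits.

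**Figure D1:**
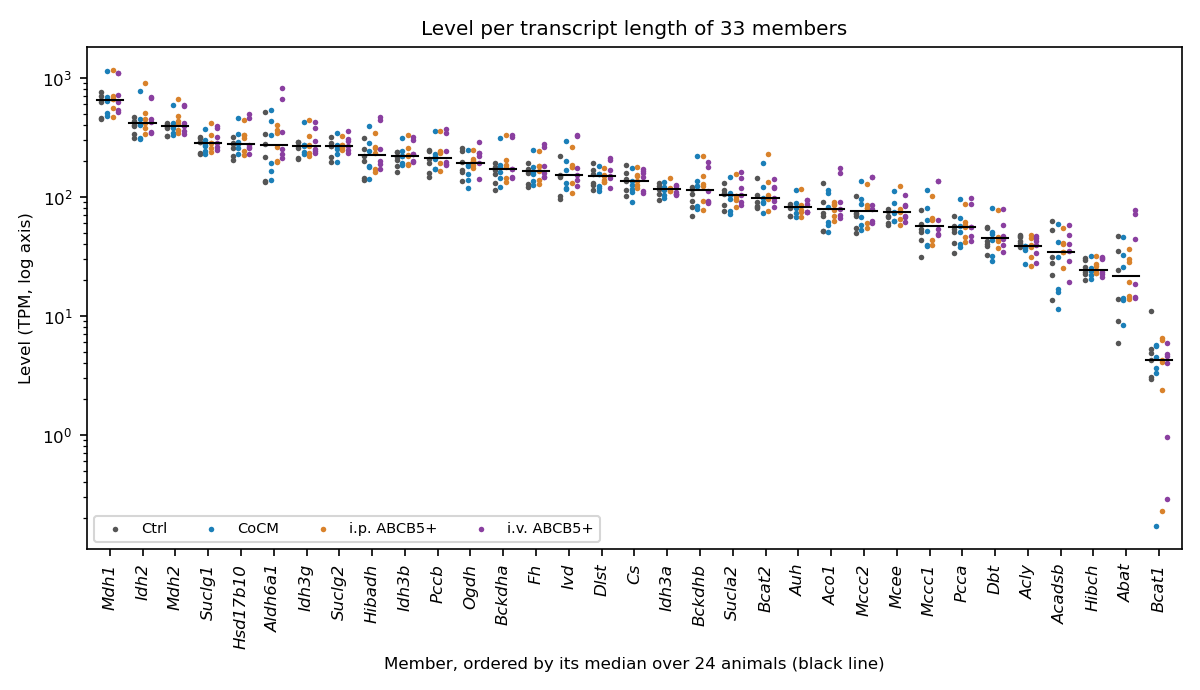
Level of 33 citrate cycle and branched-chain enzymes in TPM on a log axis, 1 point per kidney, coloured by group, with a black line at the median over 24 animals. Levels ran from a median of 654 TPM for Mdh1 to 4.25 TPM for Bcat1, and the points of 1 gene spread widely for Aldh6a1, Abat, Acadsb and Bcat1.

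Subunits of the same complex kept a fixed order of transcript level in most kidneys. Pccb, the beta subunit of propionyl-CoA carboxylase, exceeded Pcca, the alpha subunit, in 24 of 24 animals, with a TPM ratio of 3.47 to 4.54 around a median of 4.02. Idh3g and Idh3b exceeded Idh3a, the catalytic subunit of NAD-linked isocitrate dehydrogenase, in 24 of 24 animals with median ratios of 2.31 and 1.91. In the ketoacid dehydrogenase complex, Bckdha exceeded Bckdhb and Bckdhb exceeded Dbt in every animal, with median ratios of 1.54 and 2.55. Mccc2 exceeded Mccc1, its partner in methylcrotonyl-CoA carboxylase of the leucine route, in 24 of 24 animals with a median ratio of 1.30. Succinyl-CoA ligase pairs the shared alpha subunit Suclg1 with Suclg2 (GDP-forming) or Sucla2 (ADP-forming). Suclg1 exceeded Suclg2 in 22 of 24 animals with a median ratio of 1.07, so that those levels lay close together. These ratios depend on the transcript models used for length, and the study's methods name a human annotation package, so which models gave the rat values is unclear.

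Promoter sequences of 29 members, from 250 bases before to 50 bases after the gene start, were available in RefSeq tables of the rat assembly GRCr8, which is not the build behind the count tables. Entries for Idh3a, Bckdha, Mccc2 and Abat were not used here. These windows were searched on both strands for 3 motifs chosen with the data known. The estrogen-related receptor element TCAAGGTCA was found in 0 member windows and in 0.412% of all 27457 promoter windows. The CCAAT box was found in 19 member windows, which is 65.5% against 37.7% of all windows, and it overlapped no NRF1 element in the windows printed here. The NRF1 element (GCGC, any base, TGCGC), a site bound by a regulator of nuclear genes for mitochondria, was found in the windows of Hibadh and Sucla2, which is 6.90% of member windows against 4.71% of all windows and 9.20% of those of genes tested. Both windows are shown because they hold that element, with its letters in capitals, and the match is a description of letters only. Hibadh, hydroxyisobutyrate dehydrogenase of the valine route, lies on the minus strand at chr4:83077770-83078069 and Sucla2 on the plus strand at chr15:55161644-55161943.
Hibadh: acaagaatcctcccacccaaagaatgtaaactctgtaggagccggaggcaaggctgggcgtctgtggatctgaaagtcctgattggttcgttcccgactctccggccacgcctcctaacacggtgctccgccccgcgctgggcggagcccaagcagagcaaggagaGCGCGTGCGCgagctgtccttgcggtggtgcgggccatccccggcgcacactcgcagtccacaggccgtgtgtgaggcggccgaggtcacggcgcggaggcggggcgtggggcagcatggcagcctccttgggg
Sucla2: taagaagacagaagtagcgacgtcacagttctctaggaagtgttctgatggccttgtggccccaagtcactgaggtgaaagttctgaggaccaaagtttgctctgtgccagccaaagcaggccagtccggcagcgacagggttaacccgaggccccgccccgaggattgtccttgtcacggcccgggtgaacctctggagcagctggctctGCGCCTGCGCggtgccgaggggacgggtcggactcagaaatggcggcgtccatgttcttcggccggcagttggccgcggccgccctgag

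Members varied between animals of the same group more than most genes did. The SD of log2 CPM within groups had a median of 0.57 over the 18 branched-chain members and of 0.38 over the 15 citrate cycle members, beside 0.30 over all 12778 genes tested, and it exceeded that last value in 30 of 33 members. Bcat1 and Abat varied most, with SDs of 1.40 and 1.06. Acly, which splits cytosolic citrate to acetyl-CoA for lipid synthesis, varied least with an SD of 0.12. Without animals 36 to 39 the medians were 0.33 for the branched-chain members, 0.22 for the citrate cycle members and 0.23 for all genes, and 21 of 33 members exceeded the last value.

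**Figure D2:**
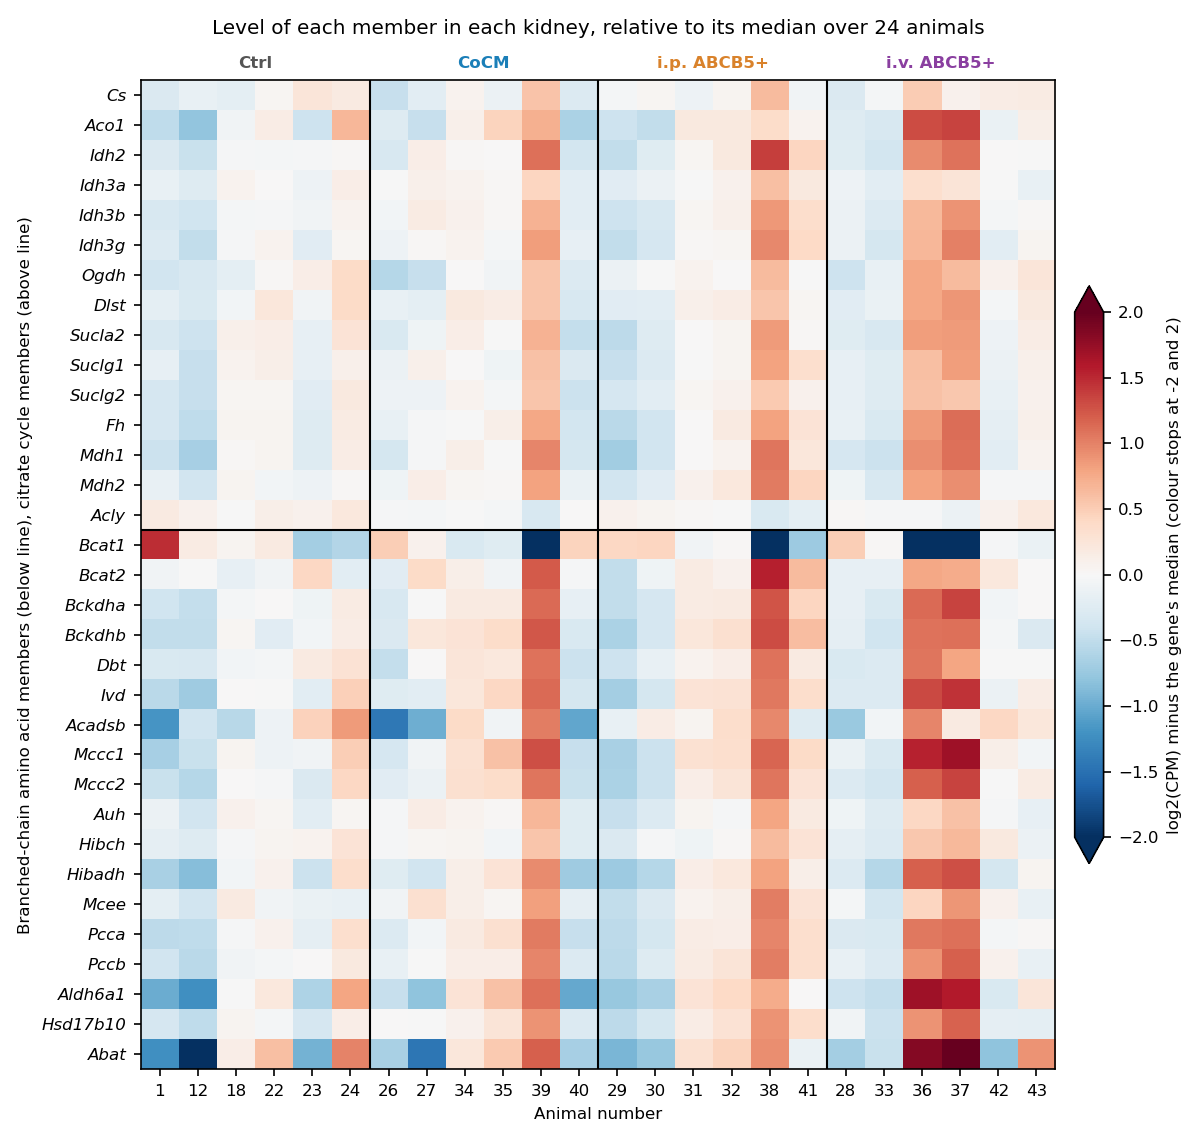
Level of each member in each kidney as log2 CPM minus the gene's median over 24 animals, with citrate cycle genes above the line, branched-chain genes below it, and animals ordered by group and number. The columns of animals 36, 37, 38 and 39 are red for nearly all members and blue for Bcat1, and animals 1 and 12 of Ctrl, 40 of CoCM, 29 of i.p. ABCB5+ and 33 of i.v. ABCB5+ are mostly blue.

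Within the control group the same kidneys were high or low in most members. Animal 24 had the highest level of its group in 25 of 33 members (23.4% of all genes tested had it above the other 5 animals) and animal 12 had the lowest in 24 of 33 (16.8% of all genes tested). Aldh6a1, methylmalonate semialdehyde dehydrogenase, measured 299 CPM in animal 12 and 1204 CPM in animal 24, around a group median of 576 CPM. Abat measured 6.37 CPM in animal 12 and 53.7 CPM in animal 24. Summed over the 33 members the control kidneys ranged from 3929 TPM in animal 1 to 6610 TPM in animal 24. Counts of this kind describe single animals and carry no test.

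The enzymes of the cycle are given by their level in each group, with the lowest, median and highest kidney in CPM. Cs, citrate synthase at the entry of the cycle, measured 112, 131 and 162 CPM in Ctrl, 98.7, 122 and 202 CPM in CoCM, 127, 136 and 212 CPM in i.p. ABCB5+, and 111, 148 and 194 CPM in i.v. ABCB5+. Idh2 measured 345, 458 and 474 CPM in Ctrl, 364, 472 and 1008 CPM in CoCM, 333, 507 and 1223 CPM in i.p. ABCB5+, and 363, 469 and 999 CPM in i.v. ABCB5+. The control kidneys thus lay close together at the top for Idh2, and each treated group had its highest value in animal 39, 38 or 37 while the group medians ran from 458 to 507 CPM.

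Ogdh, the first subunit of the oxoglutarate dehydrogenase complex, measured 346, 427 and 589.8 CPM in Ctrl, 306, 402 and 665 CPM in CoCM, 416, 454 and 704 CPM in i.p. ABCB5+, and 339, 507 and 771 CPM in i.v. ABCB5+. Of the succinyl-CoA ligase subunits, Suclg1 measured 167, 222 and 248 CPM in Ctrl, 188, 223 and 342 CPM in CoCM, 166, 232 and 401 CPM in i.p. ABCB5+, and 193, 227 and 409.9 CPM in i.v. ABCB5+. Sucla2 had group medians of 149, 147, 152 and 154 CPM in the order Ctrl, CoCM, i.p. and i.v. cells, and highest values of 184, 245, 272 and 272 CPM. Suclg2 had medians of 397, 402, 439 and 415 CPM and highest values of 482, 617, 604 and 629.9 CPM in that order. For each of these subunits the group medians lay close together and the highest kidneys lay apart. Mdh1, which passes reducing equivalents between cytosol and mitochondria with Mdh2, measured 334, 492 and 590.4 CPM in Ctrl and reached 1039.9, 1121.5 and 1142 CPM in animals 39, 38 and 37. Mdh2 had medians of 308, 332, 360.05 and 321 CPM and highest values of 337, 569, 669.7 and 621 CPM.

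Among the branched-chain enzymes, Bckdha, the decarboxylase subunit of the ketoacid dehydrogenase, measured 134, 178 and 209 CPM in Ctrl, 149, 197 and 405 CPM in CoCM, 132, 209 and 445 CPM in i.p. ABCB5+, and 149.5, 183 and 476 CPM in i.v. ABCB5+. Dbt, the core subunit of that complex, had medians of 96.2, 107, 107 and 99.2 CPM in the order Ctrl, CoCM, i.p. and i.v. cells, and highest values of 122, 211, 212 and 208 CPM. Pcca had medians of 85.2, 95.5, 100.6 and 90.8 CPM and highest values of 115, 188, 179 and 196 CPM. The highest treated kidney exceeded the highest control kidney for each of these subunits. Hibch differed less, with medians of 28.9, 28.9, 28.8 and 29.7 CPM and highest values of 34.6, 42.4, 44.7 and 45.1 CPM.

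Animal 39 of CoCM had a level above those of the other 5 animals of its group in 31 of 33 members, against 35% of all genes tested, and below them in 2, against 32.5%. For animal 38 of i.p. ABCB5+ the counts were 31 above and 2 below, against 34.7% and 29.3% of all genes. In the i.v. ABCB5+ group, animals 36 and 37 were each compared with the 4 animals numbered 28, 33, 42 and 43. Animal 36 was above these in 31 members and below in 2, against 34.8% and 36% of all genes. Animal 37 was above them in 29 members, below in 2 and within their range for Cs and Acadsb, against 36.1% and 38.2% of all genes. The 2 members below the others were Acly and Bcat1 in each of the 4 animals.

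The level in these animals relative to the median of the others of the group had a median over the members of 2.01-fold in animal 36, 2.03-fold in animal 37, 1.77-fold in animal 38 and 1.85-fold in animal 39. The branched-chain members were further from the others than the citrate cycle members in each of these animals, with medians of 2.31 and 1.79 in animal 36, 2.53 and 1.98 in animal 37, 1.82 and 1.74 in animal 38, and 2.17 and 1.72 in animal 39. In both i.v. ABCB5+ animals the members with the highest ratio were Abat, at 5.27-fold and 6.45-fold, Aldh6a1, at 4.15-fold and 3.83-fold, and Mccc1, at 3.09-fold and 3.47-fold. Animal 38 was led by other genes, with Bcat2, the mitochondrial aminotransferase, at 2.79-fold, Idh2 at 2.55-fold and Bckdha at 2.14-fold. Animal 39 was led by Acadsb, an acyl-CoA dehydrogenase of the isoleucine route, at 3.97-fold.

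Bcat1 went the other way. It measured 3 counts in animal 39 (0.341 CPM, 95% exact Poisson interval 0.0704 to 0.998 CPM), 4 counts in animal 38 (0.485 CPM, interval 0.132 to 1.24 CPM), 7 counts in animal 37 (0.651 CPM) and 20 counts in animal 36 (1.90 CPM). These intervals cover counting error only. The other animals of the same groups measured 6.10 to 10.6 CPM with CoCM, 4.54 to 10.1 CPM with i.p. cells and 6.87 to 10.7 CPM with i.v. cells. Control kidneys measured 4.71 to 21.1 CPM with the highest value in animal 1, so no control kidney came near the levels of animals 36 to 39. Acly measured 100.5 CPM in animal 39, 101 CPM in animal 38, 115 CPM in animal 37 and 122 CPM in animal 36, which is 0.814, 0.798, 0.889 and 0.944 times the median of the other animals of the group.

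The remaining genes of both pathways were also mostly high in these 4 kidneys. Of 24 other citrate cycle and pyruvate genes tested, 19 to 22 lay above the other animals of the group in each of the 4 (34.7% to 36.1% of all genes tested), and 1 lay below (29.3% to 38.2% of all genes), which was Pdp1, a phosphatase that activates pyruvate dehydrogenase. Of 30 other branched-chain enzymes, regulators and carriers, 24 to 26 lay above and 2 or 3 below, beside the same shares of all genes. Aldh3a2, a fatty aldehyde dehydrogenase, was below the others in all 4 animals, and Hmgcs1, the cytosolic HMG-CoA synthase of sterol synthesis, in animals 37, 38 and 39.

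Markers of some kidney cell types moved with the members in the same animals. Summed levels of 12 proximal tubule markers were 8965 TPM in animal 36 and 9984 TPM in animal 37, when the other animals of i.v. ABCB5+ ranged from 2238 to 4861 TPM. They were 5081 TPM in animal 38 and 6727 TPM in animal 39, above the highest of the other animals at 3952 TPM in i.p. ABCB5+ and 4082 TPM in CoCM. The 6 thick ascending limb markers summed to 5809 TPM in animal 36, 6255 TPM in animal 37, 6625 TPM in animal 38 and 6069 TPM in animal 39, each above the highest of the other animals of its group, which were 5247, 5194 and 4438 TPM in i.v. cells, i.p. cells and CoCM. Intercalated cell and podocyte markers were the highest of the group in animals 38 and 39, at 1587 and 1395 TPM and at 512 and 509 TPM, and in animal 37 the lowest, at 553 and 249.5 TPM. Principal cell markers lay within the range of the other animals in all 4. The 5 endothelial markers summed to 249 and 225 TPM in animals 36 and 37, below the 306 to 340 TPM of the other i.v. animals. In animals 38 and 39 they lay within the range of the others. Markers of the distal convoluted tubule were high in animals 38 and 39, at 2471 and 2152 TPM, and not in animals 36 and 37, at 1354 and 663 TPM, in a list of which 3 of 5 genes were analysed and Pvalb was under 3 counts in 12 or more samples.

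Markers of tubule injury, macrophages, lymphocytes and fibroblasts were low there. The 10 injured tubule markers summed to 789 to 1178 TPM in animals 36 to 39 and to 8242 to 16643 TPM in the other animals of the treated groups, with 9835 to 13915 TPM in Ctrl. The 8 macrophage markers summed to 181 to 540 TPM in the 4 animals and to no less than 1437 TPM in the other treated animals. Of 8 lymphocyte markers 7 were analysed and summed to 12.3 to 32.2 TPM against no less than 128 TPM, and the 7 fibroblast markers to 239 to 319 TPM against no less than 418 TPM. In the control group animal 24 had the highest proximal tubule sum, 5063 TPM, and the lowest injured tubule sum, 9835 TPM, while animal 1 had the lowest and the highest, 1296 and 13915 TPM. In whole kidney tissue fewer cells of a type and less RNA per cell cannot be told apart, and the part of the cell mixture in the members' levels was not tested. The genotype of animals 36 to 39 was likewise not tested, and expression levels alone do not give it.

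**Figure D3:**
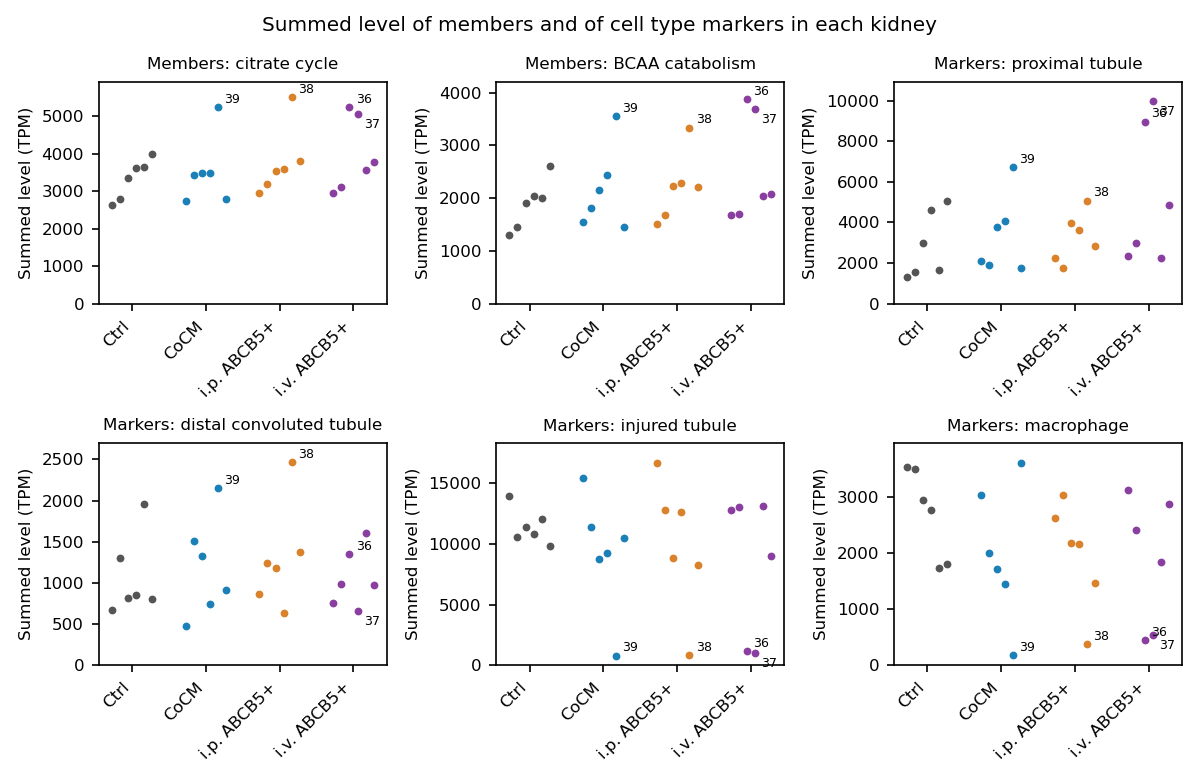
Summed TPM in each kidney of the citrate cycle members, the branched-chain members, and markers of proximal tubule, distal convoluted tubule, injured tubule and macrophages, 1 point per animal, coloured by group, with animals 36 to 39 numbered. These 4 animals lie highest of their groups for both member sums and the proximal tubule, and between 789 and 1178 TPM for injured tubule markers when the other treated animals reach no less than 8242 TPM.

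Conditioned medium was followed by no difference from untreated kidneys that passed the threshold in any member. The median log2 fold change of the members was 0.26 (0.0088 over all genes tested), with 28 members above 0 and 5 below. By edgeR's quasi-likelihood test 0 of 33 members had an adjusted p under 0.05, when 0.00783% of all genes had. DESeq2, limma-trend on log2(TPM + 1) and limma voom with sample quality weights, the forms used throughout, also called 0 members. At an unadjusted p under 0.05 there was 1 lower member, Acly, and 0 higher, against 5.96% and 5.95% of all genes.

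Acly measured 125 CPM in the lowest, 134 CPM in the median and 145 CPM in the highest control kidney, and 100.5, 123 and 125 CPM in CoCM. The groups overlapped by a narrow margin, as the highest CoCM kidney exceeded the lowest control kidney only, and all 6 CoCM kidneys lay below the control mean. The difference was -0.18 on the log2 scale (SE 0.07, edgeR unadjusted p = 0.0245, adjusted p = 0.381), and it was -0.14 with an adjusted p of 0.258 without animals 36 to 39. Over the alternative settings, leaving out single animals included, the adjusted p of Acly ran from 0.165 to 0.586.

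Bckdhb, a subunit of the ketoacid dehydrogenase, had the smallest p among members higher in CoCM. It measured 74.9, 96.1 and 117 CPM in the lowest, median and highest control kidney and 85.8, 126 and 252 CPM in CoCM, where the highest was animal 39. The log2 difference was 0.51 (SE 0.33, edgeR adjusted p = 0.496), and 0.23 without animals 36 to 39. Mcee, the methylmalonyl-CoA epimerase, and Hsd17b10 followed at 0.33 (SE 0.23, adjusted p = 0.529) and 0.36 (SE 0.27, adjusted p = 0.553). Both of those were higher than the control mean in 5 of 6 CoCM kidneys. Bcat1 and Acadsb were lower by estimate, at -0.41 (SE 0.61, adjusted p = 0.755) and -0.09 (SE 0.38, adjusted p = 0.921). Acadsb measured 12.7 to 51.8 CPM in Ctrl and 10.7 to 58.2 CPM in CoCM, and without animals 36 to 39 its difference was -0.49 (SE 0.34, adjusted p = 0.448); animal 39 held the highest CoCM value. Without these animals the median member change was 0.03, with 19 members above 0. The 12 proximal tubule markers had a median change of 0.16 and the 8 macrophage markers of -0.39 in the same comparison, with 0 adjusted calls by edgeR, DESeq2 and limma-trend and 1 by limma voom (Slc5a12). At an unadjusted p under 0.05 edgeR gave 2 lower proximal tubule markers and 0 macrophage markers. Thick ascending limb, intercalated and principal cell markers had medians of 0.42, 0.45 and 0.34, with 6 of 6 above 0 in each and 2 principal cell markers at an unadjusted p under 0.05, and fibroblast markers of -0.59. The podocyte list had a median of -0.11, 1 lower marker at an unadjusted p under 0.05 in edgeR, and 1 adjusted call by limma voom (Synpo). The 5 endothelial markers had a median of -0.29, with 4 below 0 and 2 lower at an unadjusted p under 0.05 in edgeR. With animals 36 to 39 left out, the proximal tubule median was -0.19, the thick limb, intercalated and principal cell medians 0.19, 0.20 and 0.22, and the macrophage and fibroblast medians -0.16 and -0.34. The podocyte and endothelial medians were then -0.32 and -0.25, with 4 of 5 below 0 in each. At an unadjusted p under 0.05 edgeR then gave 2 lower podocyte markers, and 2 lower and 1 higher endothelial markers.

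**Figure D4:**
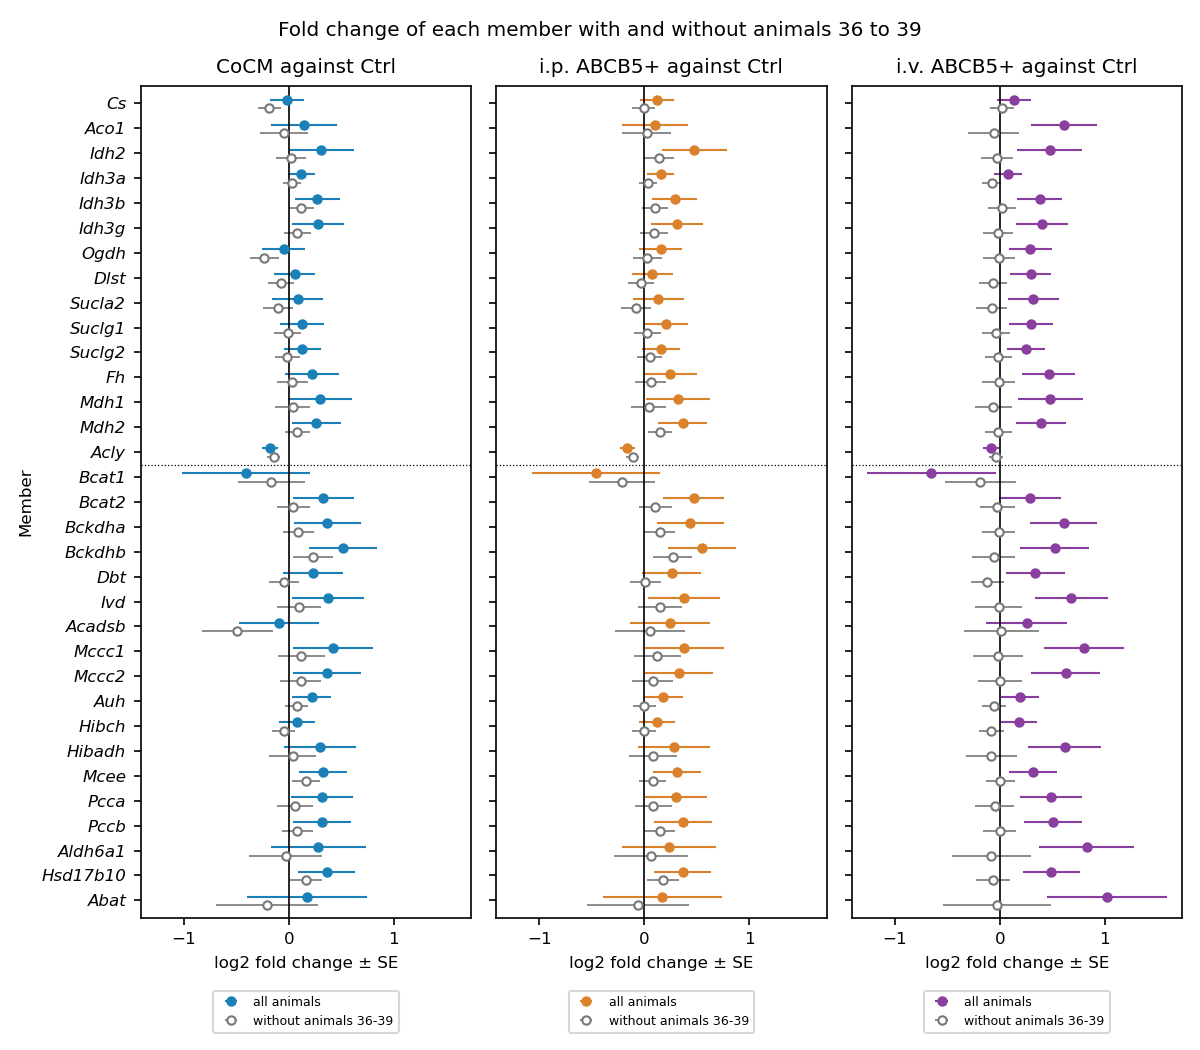
Log2 fold change of each member against Ctrl with its SE, in a panel for each of the 3 treatments (CoCM, i.p. cells, i.v. cells), with all animals (filled) and without animals 36 to 39 (open). The filled points lie mostly right of 0, around medians of 0.26, 0.26 and 0.39, and the open points gather near 0, around medians of 0.03, 0.06 and -0.03.

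Intraperitoneal cells were likewise followed by no member difference that passed the threshold. The median member change was 0.26 (0.0037 over all genes), with 31 members above 0 and 2 below. Again 0 of 33 members had an adjusted p under 0.05 in edgeR, when 0% of all genes had, and DESeq2, limma-trend and limma voom called 0 members. At an unadjusted p under 0.05 there was 1 lower member, Acly, and 0 higher, against 0.509% and 1.26% of all genes.

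Acly measured 101 CPM in the lowest, 126 CPM in the median and 133 CPM in the highest kidney of i.p. ABCB5+, with every animal below the control mean of 135 CPM. The difference was -0.16 (SE 0.07, edgeR unadjusted p = 0.0401, adjusted p = 0.978) and -0.11 without animals 36 to 39. Bcat1, the only other member lower by estimate, differed by -0.46 (SE 0.61, adjusted p = 0.978) with animal 38 at the lowest value. Among members higher by estimate, Bckdhb differed by 0.55 (SE 0.33), Bcat2 by 0.47 (SE 0.29) and Mdh2 by 0.37 (SE 0.23), each with an adjusted p of 0.978. Bcat2 measured 84.6, 93.1 and 129 CPM in the lowest, median and highest control kidney and 69.5, 106 and 287 CPM in i.p. ABCB5+. The lowest value of both groups was in a treated kidney, and the highest was in animal 38. Without animals 36 to 39 the 3 differences were 0.27, 0.11 and 0.15, and the median member change was 0.06, with 26 members above 0. The proximal tubule markers had a median change of 0.17, the injured tubule markers of -0.22 and the macrophage markers of -0.48. Thick ascending limb, intercalated and principal cell markers had larger medians of 0.69, 0.49 and 0.42, with 6 of 6 above 0 in each, and at an unadjusted p under 0.05 edgeR gave 1 higher thick limb marker and 2 higher principal cell markers. Those 3 medians were, without animals 36 to 39, 0.45, 0.13 and 0.22, and the proximal tubule, injured tubule and macrophage medians were -0.086, -0.081 and -0.28. The podocyte median was -0.11 with all animals, with 4 of 5 below 0. It was -0.27 without animals 36 to 39, with 5 of 5 below 0 and 1 lower at an unadjusted p under 0.05 in edgeR.

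Intravenous cells had the largest member median of the 3 treatments, 0.39 (0.013 over all genes), with 31 members above 0 and 2 below. Whether the treatments differ in this median was not tested. In edgeR 0 of 33 members had an adjusted p under 0.05, when 0% of all genes had, and DESeq2, limma-trend and limma voom called 0 members. At an unadjusted p under 0.05 there was 1 higher member, Mccc1, and 0 lower, against 4.44% and 1.34% of all genes. The highest level of the group was in animal 36 or 37 for 31 members, against 43.4% of all genes. Without animals 36 to 39 the median member change was -0.03, with 5 members above 0 and 28 below.

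Mccc1 measured 57.7, 85.9 and 128 CPM in the lowest, median and highest control kidney, and 73.8, 93.3 and 297 CPM in i.v. ABCB5+. Animals 36 and 37 measured 264 and 297 CPM, and the other 4 animals of the group 73.8 to 98.9 CPM, inside the control range. The difference was 0.80 (SE 0.38, edgeR unadjusted p = 0.0465, adjusted p = 0.673), and -0.01 without animals 36 to 39. Ivd, isovaleryl-CoA dehydrogenase of the leucine route, differed by 0.68 (SE 0.35) and Aco1, the cytosolic aconitase that also serves as an iron-regulatory protein, by 0.61 (SE 0.32), each with an adjusted p of 0.673. These became -0.01 and -0.06 without animals 36 to 39. The estimate farthest from 0 was that of Abat, at 1.02 (SE 0.57, adjusted p = 0.673), named here for its size. Abat measured 6.37, 21.9 and 53.7 CPM in the lowest, median and highest control kidney and 15.5, 35.1 and 118 CPM in i.v. ABCB5+, with animal 37 the highest. Acly and Bcat1 were lower by estimate, at -0.08 (SE 0.07, adjusted p = 0.706) and -0.65 (SE 0.61, adjusted p = 0.712). Comparisons with Ctrl share the same 6 control kidneys, so likeness between them is not independent. The proximal tubule markers had a median change of 0.81 in this comparison, with 11 of 12 above 0, and the injured tubule and macrophage markers of -0.45 and -0.52. These marker lists had 0 adjusted calls by each of the 4 tools, and 2 proximal tubule markers were higher at an unadjusted p under 0.05. Thick ascending limb markers had a median of 0.64, with 6 of 6 above 0, and fibroblast markers of -0.58. Leaving out animals 36 to 39, the proximal tubule and thick limb medians were 0.037 and 0.064, and the injured tubule, macrophage and fibroblast medians were -0.030, -0.11 and -0.25.

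The 2 routes of cell injection were compared directly, and 0 of 33 members had an adjusted p under 0.05 in edgeR, DESeq2, limma-trend or limma voom. The background was 0% of all genes in edgeR. At an unadjusted p under 0.05, 0 members had higher values after intraperitoneal injection and 0 had lower ones, against 0.689% and 1.46% of all genes. The median member difference was -0.09, with 5 members above 0 and 28 below, and it turned to 0.08 without animals 36 to 39. Aco1, Abat and Aldh6a1 were lower in i.p. ABCB5+ by estimate, at -0.51 (SE 0.32), -0.85 (SE 0.57) and -0.59 (SE 0.45), each with an adjusted p of 0.9999. Aldh6a1 measured 414, 772 and 1168 CPM in the lowest, median and highest kidney of i.p. ABCB5+ and 499.9, 695 and 2261 CPM in i.v. ABCB5+. The i.p. median was the higher of the medians, and animals 36 and 37 at 2261 and 2085 CPM were the highest of the i.v. group. Bcat2, Idh3a and Bcat1 were higher in i.p. ABCB5+ by estimate, at 0.18 (SE 0.29), 0.08 (SE 0.13) and 0.19 (SE 0.61), within their errors. All 12 proximal tubule markers were lower in i.p. ABCB5+ by estimate, with a median of -0.60, which was -0.15 with 9 of 12 lower without animals 36 to 39. Principal cell and intercalated cell markers were higher, with medians of 0.33 and 0.28 and 6 of 6 above 0 in each. In edgeR 1 principal cell marker was higher at an unadjusted p under 0.05. Without animals 36 to 39 those medians were 0.24 and 0.046, with 6 and 4 of 6 above 0.

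The remaining genes of both pathways were compared in the same fits. Of 24 other citrate cycle genes and 30 other branched-chain genes tested, 0 had an adjusted p under 0.05 in any comparison by edgeR, DESeq2, limma-trend or limma voom. Their median log2 changes were 0.17 and 0.21 after CoCM, 0.18 and 0.21 after i.p. cells, and 0.36 and 0.42 after i.v. cells. At an unadjusted p under 0.05, CoCM had 1 lower gene, Aldh3a2, at -0.23 (SE 0.09, adjusted p = 0.363). In i.p. ABCB5+ there were 1 higher, Mmaa of cobalamin handling, at 0.39 (SE 0.15, adjusted p = 0.978), and 1 lower, again Aldh3a2, at -0.21. In i.v. ABCB5+ there were Acads, the short-chain acyl-CoA dehydrogenase, at 0.58 (SE 0.23), Me1, the cytosolic malic enzyme, at 0.85 (SE 0.37), and Acadm, the medium-chain enzyme, at 0.77 (SE 0.35), with Aldh3a2 lower at -0.20, each with an adjusted p of 0.673. Me1, Acadm and, in the groups given cells, Aldh3a2 were named after their values were seen. Over all genes tested, the shares higher and lower at an unadjusted p under 0.05 were 5.95% and 5.96% after CoCM. They were 1.26% and 0.509% after i.p. cells, 4.44% and 1.34% after i.v. cells, and 0.689% and 1.46% between the routes. Between the routes of injection the medians were -0.086 and -0.22, with 0 genes at an unadjusted p under 0.05. Without animals 36 to 39 the medians of the other citrate cycle and branched-chain genes were -0.021 and 0.035 after CoCM, 0.038 and 0.065 after i.p. cells, -0.034 and -0.047 after i.v. cells, and 0.084 and 0.10 between the routes. In i.v. ABCB5+ Me1, Acadm and Acads then differed by 0.056, 0.0091 and 0.066. Aldh3a2 differed by -0.18 after CoCM, -0.18 after i.p. cells and -0.11 after i.v. cells, and Mmaa by 0.29 after i.p. cells. Aldh3a2 measured 81.1 to 101 CPM in untreated kidneys, 63.8 to 89.8 CPM after CoCM, 71.6 to 86.1 CPM after i.p. cells and 68.4 to 93.9 CPM after i.v. cells, so the groups overlapped.

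Within a kidney, 4 ratios of enzymes with paired roles were compared between groups on the log2 scale of TPM, as 16 two-sided exact permutation tests, in which the smallest possible p is 0.00216. The adjusted p was 0.775 or more in all 16. The ratio of Acly to Cs sets the use of citrate in the cytosol beside its synthesis in mitochondria. It measured -1.66 ± 0.21 in untreated kidneys, -1.79 ± 0.47 after CoCM, -1.94 ± 0.41 after i.p. cells and -1.87 ± 0.29 after i.v. cells (mean ± SD of 6 animals). The difference of i.p. ABCB5+ from Ctrl, -0.28, had the smallest raw p (exact permutation p = 0.143, adjusted p = 0.775), and animal 38 had the lowest ratio of all at -2.75. Without animals 36 to 39 the differences from Ctrl were 0.0398 for CoCM, -0.12 for i.p. cells and -0.064 for i.v. cells.

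The ratio of Suclg2 to Sucla2 varied little in Ctrl, from 1.30 to 1.38 with an SD of 0.028, and more in the treated groups, from 1.25 to 1.59 after CoCM, 1.07 to 1.58 after i.p. cells and 1.08 to 1.47 after i.v. cells. The lowest value of each treated group was in animal 39, 38 or 37, and the highest in animal 26, 29 or 28. The largest difference in means was 0.10 between the routes of injection (exact permutation p = 0.316, adjusted p = 0.775). The difference of i.p. ABCB5+ from Ctrl was 0.066 with all animals (exact permutation p = 0.435, adjusted p = 0.775). Without animal 38 it was 0.13 (exact permutation p = 0.00433, adjusted p = 0.0693), when the other 5 i.p. kidneys, at 1.42 to 1.58, lay above all 6 controls. That p is the smallest possible for 5 against 6 animals, so 1 such result among 16 tests could not pass the threshold. When animals 36 to 39 were left out, the CoCM difference went from 0.060 to 0.090 (exact permutation p = 0.0433, adjusted p = 0.346) and the i.v. difference from -0.031 to 0.067 (exact permutation p = 0.105, adjusted p = 0.559). Mdh1 to Mdh2 ranged from 0.48 to 0.91 in Ctrl and from 0.46 to 0.94 in the treated groups. Bcat1 to Bcat2 measured -4.33 ± 0.87 in untreated kidneys, -5.35 ± 2.39 after CoCM, -5.41 ± 2.36 after i.p. cells and -5.54 ± 1.97 after i.v. cells, and the i.v. difference of -1.21 (exact permutation p = 0.238, adjusted p = 0.775) became 0.0027 without animals 36 to 39. The CoCM difference of -1.01 became -0.054 without animal 39, and the i.p. difference of -1.07 became -0.16 without animal 38.

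**Figure D5:**
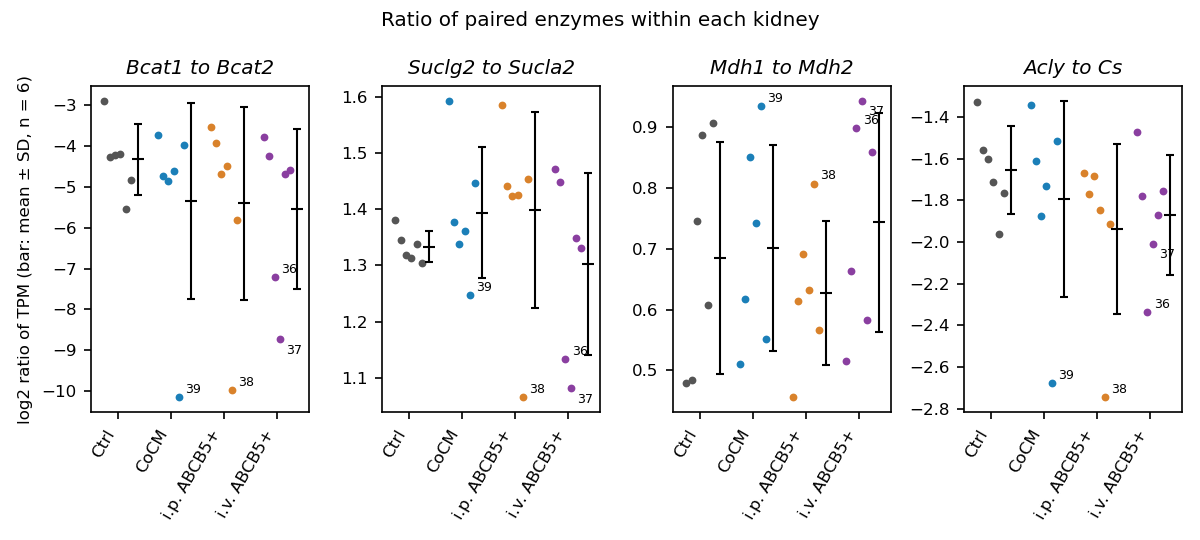
Log2 ratio of TPM within each kidney for Bcat1 to Bcat2, Suclg2 to Sucla2, Mdh1 to Mdh2 and Acly to Cs, 1 point per animal with the group's mean ± SD (n = 6) beside it and animals 36 to 39 numbered. For Bcat1 to Bcat2 these animals lie from -10.15 to -7.21 and all others between -5.81 and -2.90.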

How the data were processed

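Left kidney RNA of 24 rats was sequenced on BGISEQ-500, with 1 library per animal and groups taken from the sample labels. The authors deposited estimated counts per gene and TPM per gene, which the authors scaled for transcript length and library total. The submitters' processing notes name Trim Galore 0.6.4, kallisto 0.4.6 and the build rn6. The study's methods name a human annotation package (TxDb, knownGene) although the reads are from rat, so the transcript models behind the counts and TPM are unclear. Strand handling is not given in the sources used here. Of 17334 identifiers 17179 matched symbols in a RefSeq table of GRCr8. Between 86.4% and 87.3% of deposited estimated counts were whole, and the counts were rounded before testing.

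Genes were filtered with filterByExpr, scaled by TMM and tested with edgeR 4.0.16 (R 4.3.3) by quasi-likelihood over all 24 animals, with Benjamini-Hochberg adjustment over 12778 genes and a threshold of 0.05. Levels are TMM-scaled CPM. SEs were derived from the F statistic. The 4 ratios used exact permutation tests (scipy 1.17.1), adjusted over 16 tests. The scripts were tested on simulated data. Alternatives were DESeq2 1.42.0, limma 3.58.1, other filters and scaling, and leaving out animals. With limma, the trend method was run on log2(TPM + 1), and voom was run with sample quality weights only. Members and gene lists were chosen with earlier results of these data known. Named in each comparison were the 3 members with the smallest p above and below 0, and others are said to be named for their size. Where no more than 2 members were below 0, all were named. Levels by group are given for members chosen by role, and of the other pathway genes that with the smallest p. Totals of 9304630 to 14125457 counts limit the precision of Bcat1 most. The p-values weigh a difference between groups against the spread between animals.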

Additional observations from a re-analysis of the deposited data

Results flagged for a closer look

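In 30 of 148 combinations of a measure and a group, 1 animal stood farther from its group than Dixon's 95% critical value for 6 animals allows, when chance gives about 7.4. Animal 39 of CoCM accounted for 17 of these and animal 38 of i.p. ABCB5+ for 11. Animals 36 and 37 shared a group, so that neither stood alone in it. No explanation was weighed, and the cause was not tested.

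Animal 39 was the highest of CoCM in CPM for Idh2 (1008), Idh3b (356.4), Idh3g (429.9), Suclg1 (341.9), Fh (298.8), Mdh1 (1040.0) and Mdh2 (568.6) of the citrate cycle. It was also the highest for the branched-chain enzymes Bcat2 (229.1), Bckdha (405.4), Bckdhb (251.8), Dbt (211.3), Auh (104.3), Hibch (42.45), Pccb (513.1) and Hsd17b10 (284.5). It was the lowest for Acly, at 100.5 CPM, and for the log2 ratio of Bcat1 to Bcat2, at -10.15.

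Animal 38 was the highest of i.p. ABCB5+ in CPM for Cs (212.3), Idh2 (1223), Ogdh (703.9), Sucla2 (271.8), Mdh1 (1122), Bcat2 (287.1), Bckdha (445.4) and Dbt (212.3). It was the lowest for the log2 ratios of Bcat1 to Bcat2, at -9.969, of Suclg2 to Sucla2, at 1.065, and of Acly to Cs, at -2.745. In the control group, animal 1 was the highest for Bcat1 at 21.06 CPM and animal 23 for Bcat2 at 129.4 CPM.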

How the results depend on the processing

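The members' 0 adjusted calls held in all 4 comparisons under every alternative. Leaving out single animals reversed the sign of 22 results, and the other alternatives reversed 16. Most of those 16 came with animals 36 to 39 left out together. Without them the log2 ratio difference of Acly to Cs in CoCM was 0.0398, of Mdh1 to Mdh2 -0.031 in CoCM and -0.030 in i.v. ABCB5+, of Suclg2 to Sucla2 in i.v. ABCB5+ 0.067, and of Bcat1 to Bcat2 0.0027 in i.v. ABCB5+ and -0.17 for i.p. against i.v. ABCB5+. Log2 fold changes in i.v. ABCB5+ became -0.057 for Aco1, -0.011 for Ivd, -0.014 for Mccc1 and -0.025 for the member median, and for i.p. against i.v. ABCB5+ 0.079 for Aco1, 0.14 for Aldh6a1 and -0.028 for Bcat1. Between the routes the member median turned from -0.090 to 0.082. With voom quality weights it turned to 0.16 (30 members above 0), the CoCM, i.p. and i.v. medians were 0.10, 0.15 and -0.026, and i.p. against i.v. ABCB5+ gave 0.35 for Abat, 0.16 for Aco1, 0.31 for Aldh6a1 and -0.022 for Bcat1.

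Members under an unadjusted p of 0.05 numbered 1 in each comparison with Ctrl. In CoCM they were 2 (Acly and Bckdhb) when only the groups compared were fitted. In i.p. ABCB5+ they were 0 in that fit, with at least 10 counts in every sample, with limma-trend and without animals 36 to 39. In i.v. ABCB5+ they were 2 (Ivd and Mccc1) in DESeq2 and 0 when only the groups compared were fitted, with limma-trend, with voom weights and without animals 36 to 39. Over all genes CoCM had 1 adjusted call in edgeR, 81 in DESeq2, 183 with voom weights and 0 with limma-trend.

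Leaving out single animals gave 0 to 1 such members for CoCM, 0 to 3 for i.p. cells (without animal 29) and 0 to 12 for i.v. cells (without animal 33). The member median ran from 0.041 (without animal 39) to 0.33 for CoCM, from 0.058 (without animal 38) to 0.34 for i.p. cells, from 0.21 (without animal 37) to 0.47 in i.v. ABCB5+, and from -0.30 (without animal 38) to 0.014 (without animal 37) between the routes. For CoCM, the ratio difference of Acly to Cs ran from -0.23 to 0.0398 (without animal 39) and of Mdh1 to Mdh2 from -0.031 (without animal 39) to 0.060. In i.v. ABCB5+, Suclg2 to Sucla2 ran from -0.065 to 0.013 (without animal 37). Between the routes, Acly to Cs ran from -0.16 to 0.095 (without animal 38) and Bcat1 to Bcat2 from -0.50 (without animal 37) to 1.047 (without animal 38). Among members in CoCM, Acadsb ran from -0.47 to 0.13 (without control animal 24) and Bcat1 from -0.57 to 0.017 (without control animal 1). Between the routes, Bcat1 ran from -0.041 (without animal 37) to 0.46, Bcat2 from -0.17 (without animal 38) to 0.31 and Idh3a from -0.034 (without animal 38) to 0.14.

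Without animal 38 the i.p. difference in Suclg2 to Sucla2 was 0.13 with an adjusted p of 0.0693 (exact permutation test). That is the lowest adjusted p that 1 such result among 16 tests can reach with 1 animal left out. No paired analysis was possible because no animal number occurs in more than 1 group. Depth limits Bcat1, which the filter of 10 counts in every sample removed.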
